A study of Mus musculus with 24 samples.

Results

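Interferon-stimulated genes and the genes of class I antigen processing were followed as 1 set of 39 named mouse genes in liver. Members were taken by symbol from the gene annotation of the array, and all 39 were found among the 37074 gene symbols on it and among the 21331 genes that passed the filter on dim probes. By role they fall into 4 factors of signal transduction, 4 sensors of nucleic acids, 15 antiviral effectors, the ubiquitin-like modifier Isg15 with its protease Usp18, 8 interferon-inducible GTPases and 6 genes of antigen processing.

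The samples were livers of 24 male C57Bl/6J mice on a standard diet, 6 in each of 4 groups. LWT mice have PPARα, a fatty-acid-sensing nuclear receptor, in hepatocytes, and LKO mice lack it there, as far as the series states. What drives the deletion is not given in the sources used here. Each genotype received by gavage, at Zeitgeber time 10 h, either vehicle (carboxymethyl cellulose at 0.5%) or CL316243 at 3 mg/kg, an agonist of the beta3 adrenergic receptor that the labels call Beta3. Livers were collected at 16 h, and the series asks how the agonist changes the liver transcriptome and what hepatocyte PPARα contributes to that. All 4 groups therefore share sex, diet and time of day, and the LWT vehicle mice are the reference for both factors.

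Type I and type III interferons bind receptors that activate STAT2, which joins IRF9 in a complex that switches on a large set of genes through the interferon-stimulated response element. Interferon gamma acts through the gamma-activated site and is a classical inducer of the guanylate-binding proteins, of IRF1 and of the immunoproteasome and peptide transporter genes. In liver these programmes operate in hepatocytes as well as in Kupffer, endothelial and infiltrating immune cells.

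The core of the response element was present in the promoters of some members but not of all. Stretches that hold it are given here because the members that hold it fall on both sides of the calls described later. RefSeq promoter windows of 300 bases (GRCm38.p6, 250 bases before to 50 after the annotated start) were matched for 29 of the 39 members, 33 windows in all. The core, GAAA followed by any 2 bases and GAAA, searched on both strands, was present in the windows of 17 of these 29 members, or in 51.5% of their windows against 3.44% of all 32851 windows. Capitals mark matches, each sequence is written 5′ to 3′ along its gene, and a match on the opposite strand reads as TTTC, 2 bases and TTTC.
Isg15 (chr4:156200861-156200910, minus strand, bases -92 to -43 from the start): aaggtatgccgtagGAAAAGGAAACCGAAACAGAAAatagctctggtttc
Ifit1 (chr19:34640774-34640823, plus strand, bases -115 to -66): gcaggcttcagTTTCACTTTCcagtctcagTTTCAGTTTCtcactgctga
Ifit3 (chr19:34583368-34583421, plus strand, bases -161 to -108): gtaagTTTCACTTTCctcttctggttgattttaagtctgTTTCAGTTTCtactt
Rsad2 (chr12:26456543-26456592, minus strand, bases -140 to -91): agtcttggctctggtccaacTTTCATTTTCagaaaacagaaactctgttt
Oas1a (chr5:120907526-120907575, minus strand, bases -50 to -1): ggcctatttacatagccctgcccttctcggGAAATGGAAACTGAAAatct
Irgm1 (chr11:48871421-48871470, minus strand, bases -50 to -1): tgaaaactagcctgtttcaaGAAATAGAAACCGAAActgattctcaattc
Stat2 (chr10:128270256-128270305, plus strand, bases -242 to -193): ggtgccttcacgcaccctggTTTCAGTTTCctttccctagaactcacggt
Irgm2 (chr11:58214893-58214942, plus strand, bases -84 to -35): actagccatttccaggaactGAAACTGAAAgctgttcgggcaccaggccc
Those 8 members rose with CL316243 in LKO mice, whereas the following 3 passed the test in none of the 5 comparisons.
Igtp (chr11:58199502-58199551, plus strand, bases -54 to -5): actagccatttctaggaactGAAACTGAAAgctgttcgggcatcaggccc
Bst2 (chr8:71537570-71537619, minus strand, bases -147 to -98): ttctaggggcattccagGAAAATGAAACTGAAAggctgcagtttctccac
Gbp2 (chr3:142620584-142620633, plus strand, bases -79 to -30): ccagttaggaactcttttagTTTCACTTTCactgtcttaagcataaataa
Isg15 carried 3 overlapping matches in a row, and Ifit1, Ifit3, Oas1a, Irgm1 and Bst2 carried 2. The Irgm2 and Igtp stretches were identical at 48 of 50 bases. With CL316243 in LKO mice, the log2 change was 0.6 (SE 0.15) for Irgm2 and 0.44 (SE 0.24) for Igtp. Irgm2 was called and Igtp was not, but Igtp passed when the fit held only the LKO groups. A difference in response between these genes was not tested. Over the 16 members with a window that rose with CL316243 in LKO mice, 9 held the core, and over the 13 that did not rise, 8 held it. The 9 include Oas3, which passed the filter on dim probes only through the LKO CL316243 mice. The gamma-activated site TTCNNNGAA, which reads the same on both strands, was present for 8 of 29 members, among them Irf1, Psmb8, Gbp7 and Igtp, and in 24.2% of member windows against 8.3% of all windows. No match of either motif was found in the windows of Cmpk2, Ifi44, Irf7, Irf9, Oasl2, Xaf1, Oasl1, Psmb9 and Tap1, which says only that these letters are not in these 300 bases.

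**Figure D1:**
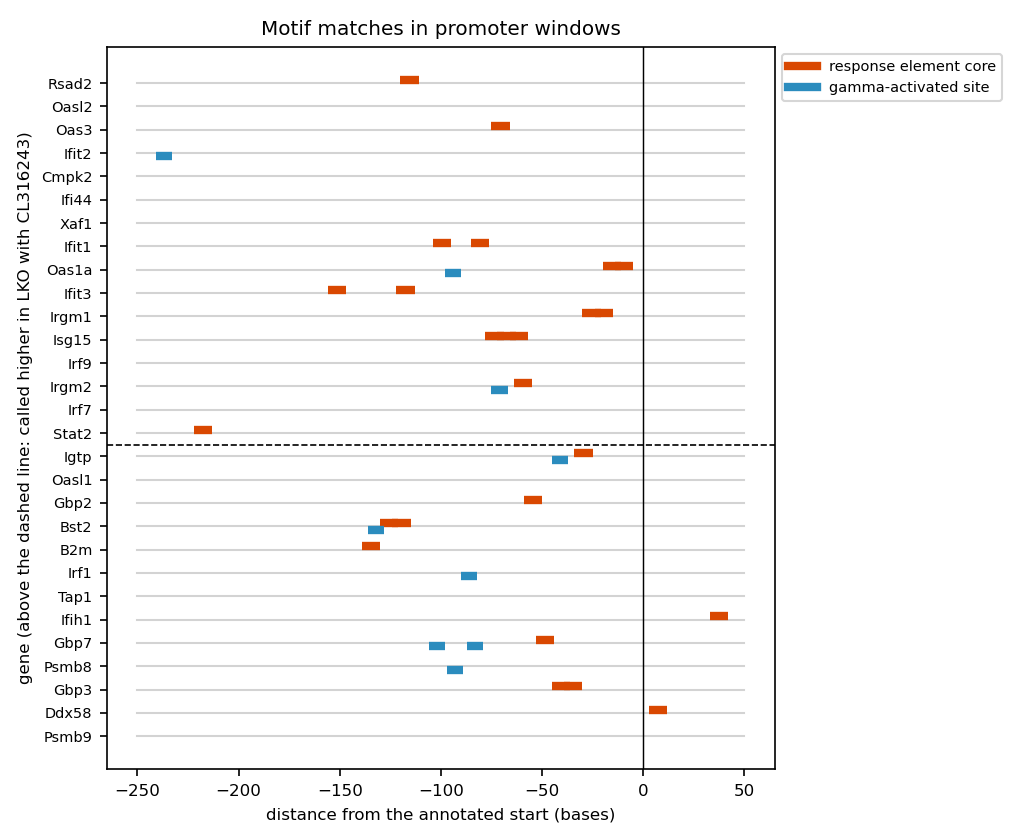
Positions of the response element core (orange) and the gamma-activated site (blue) in the promoter windows of 29 members, on an axis of distance from the annotated start in bases. Genes above the dashed line rose with CL316243 in LKO mice. Cores lie above and below the line, in 9 of 16 and 8 of 13 genes.

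Levels are given as log2 signals relative to the 75th percentile of the same array, so 0 is the level of that percentile and a difference of 1 is a 2-fold difference. Per array, 26985 to 34202 of 56605 probes were well above background, and the number of mice, 6 per group, limits the precision (median SE of 0.13 for a difference between 2 groups and of 0.19 for a difference of differences). The genotype labels were checked with Ppara, whose brighter probe ranged from 5.45 to 5.93 in LWT and from 4.81 to 5.18 in LKO under vehicle, and from 5.70 to 6.42 and 3.06 to 4.85 under CL316243, with no overlap in either case. The exact permutation p was 0.00216 both times (two-sided, 924 splits), the smallest possible, while limma's adjusted p was 0.158 under vehicle and 3.6e-07 under CL316243; whether these probes lie in the deleted part is not known. Tests were limma's, adjusted over all 21331 genes (Benjamini-Hochberg), and a gene was called when its adjusted p was under 0.05. The labels do not say whether the mice came from separate litters or cages.

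LKO vehicle against LWT vehicle gave 0 members called higher and 0 lower by limma, where 0.398% and 0.778% of all genes were called, and 2 members had an unadjusted p under 0.05. The median difference over the members was -0.06, and the differences ran from -0.48 in Nlrc5 (adjusted p 0.177) to 0.17 in Gbp7 (adjusted p 0.917). For no member did the 6 LKO vehicle mice all lie above or all below the 6 LWT vehicle mice (0.703% and 1.1% of all genes).

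More members rose with CL316243 in LKO mice than in LWT mice. In LWT mice 9 members rose and 6 fell, that is 23.1% and 15.4% of them, against 18.9% and 19.4% of all genes (38.3% in either direction), so both shares were near those of the whole array. The median change was 0.04, where it was 0.01 over all genes. In LKO mice 22 members rose and 1 fell, against 20.9% and 19.4% of all genes (40.3% in either direction), and the median change was 0.60 against 0.03. Of all genes called in LKO mice 51.9% were higher, and 41.2% with arrays scaled on the median. The CL316243 and vehicle mice did not overlap, with CL316243 higher, for 17 members in LKO (10.5% of all genes) and for 3 in LWT (10%). In the opposite direction this held for 1 member in LKO and 4 in LWT, where it held for 10.4% of all genes in each genotype. Of the 22 that rose in LKO mice, 8 also rose in LWT mice (Ifit2, Irf9, Oas2, Oasl2, Rsad2, Iigp1, Nlrc5 and Zbp1) and 14 were not called there. Oas3, counted among the 22 and among the 17 without overlap, passed the filter on dim probes only through the LKO CL316243 mice. Its median was highest in that group, so it gives these counts no support. Psmb9 fell in both genotypes.

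The change itself was then compared between genotypes, as the CL316243 effect in LKO minus that in LWT. The effect was larger in LKO mice for 7 members and smaller for 0, where 2.17% and 3.24% of all genes were called in these directions (5.41% in either). Those 7 were Usp18, Mx2, Stat2, Xaf1, Irgm1, Ifi44 and Isg15. Without LKO CL316243 replicate 3 there were 13, with Ifit1, Ifit3, Oasl1, Rsad2, Ddx58 and Cmpk2 added, and without replicate 6 there were 7. In all, 35 of the 39 differences were positive and 21 had an unadjusted p under 0.05, and their median was 0.55. Setting LKO directly against LWT among the CL316243 mice, 21 members were higher in LKO and 0 lower, against 7.74% and 8.17% of all genes, with a median difference of 0.48. When the fit held only these 2 groups, 13 were higher, and the calls of Ifit1, Ifit3, Ifi44, Ddx58, Ifih1, Gbp7, Irgm2 and Cmpk2 were lost (adjusted p 0.0576 to 0.143). The mice of both genotypes did not overlap for 10 members with LKO higher (2.53% of all genes) and for 0 with LKO lower (4.04%). These comparisons use the same LKO CL316243 mice and, in part, the same controls, so their counts are not independent of one another.

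With 2 mice of a group on any slide, values could also be read within the 3 slides. Within slides 1, 2 and 3 the median change with CL316243 in LKO mice was 0.43, 0.86 and 0.56, and 27, 35 and 29 of the 39 members were positive. In LWT mice the corresponding medians were 0.36, -0.22 and 0.15. The difference between genotypes had a median of -0.02 on slide 1, with 19 of 39 members positive, against 0.93 and 0.40 on slides 2 and 3, with 36 and 32 positive. For the 7 members called in that comparison the difference was positive on each slide, from 0.17 for Isg15 to 1.29 for Mx2 on slide 1. Those 7 were picked by the same arrays, which favours a positive sign on each slide, so this is not separate support. Slide as a block left the called counts at 22 and 7 in LKO mice and in the difference. Under vehicle, LKO minus LWT also varied by slide. Its medians were 0.18, -0.30 and -0.04 on slides 1, 2 and 3, with 35, 2 and 16 of the 39 members positive.

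**Figure D2:**
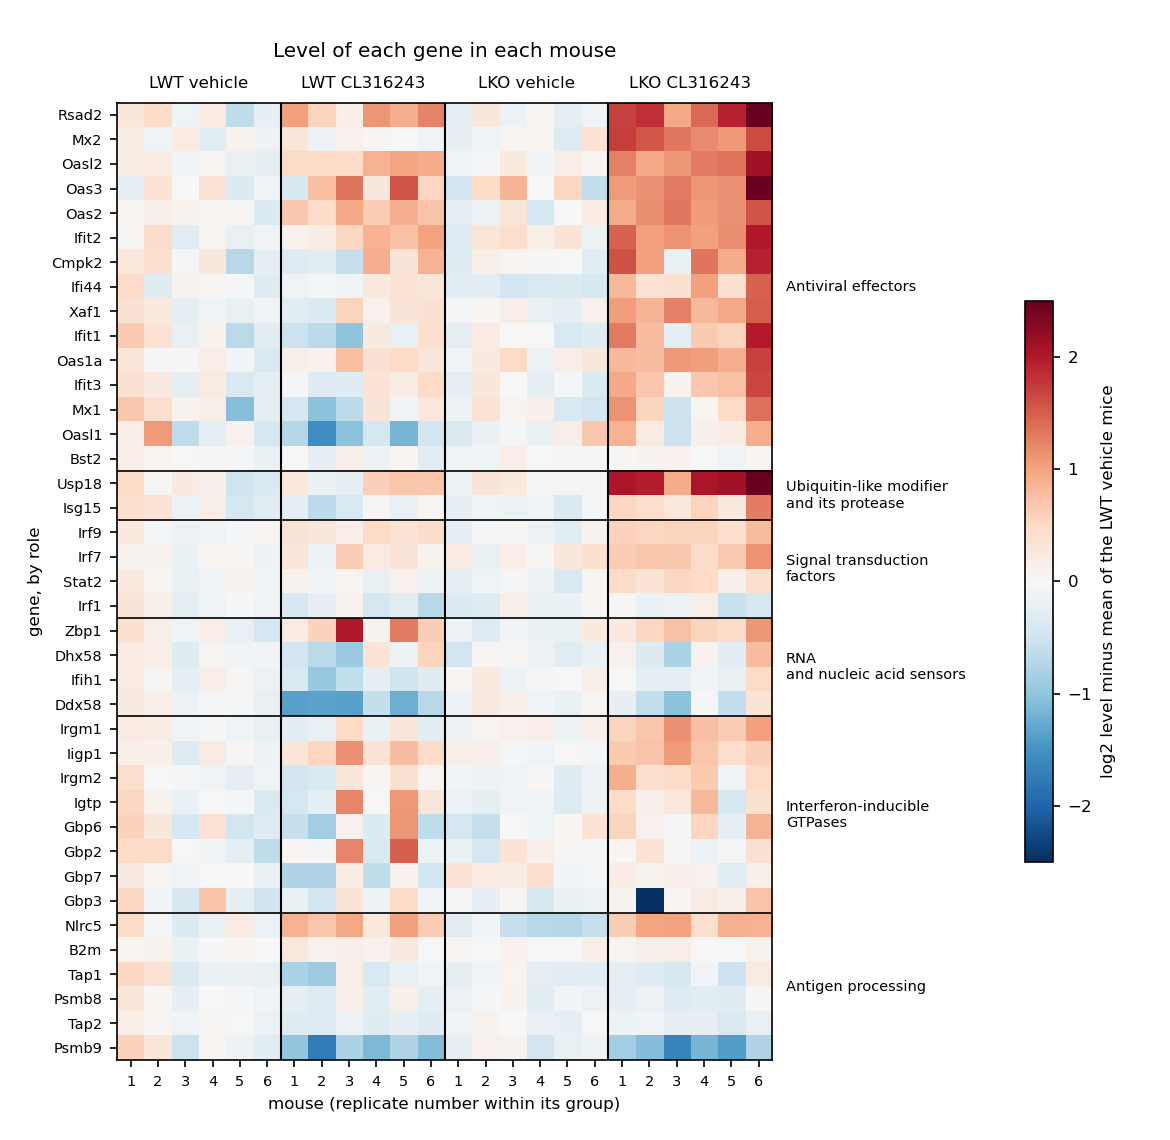
Level of each of the 39 genes (rows, by role) in each of the 24 mice (columns, by group), as the log2 level minus the mean of the LWT vehicle mice; values beyond the ends of the colour bar take its end colours. Most antiviral effectors and Usp18 are red in LKO CL316243, and Psmb9 is blue in both CL316243 groups.

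**Figure D3:**
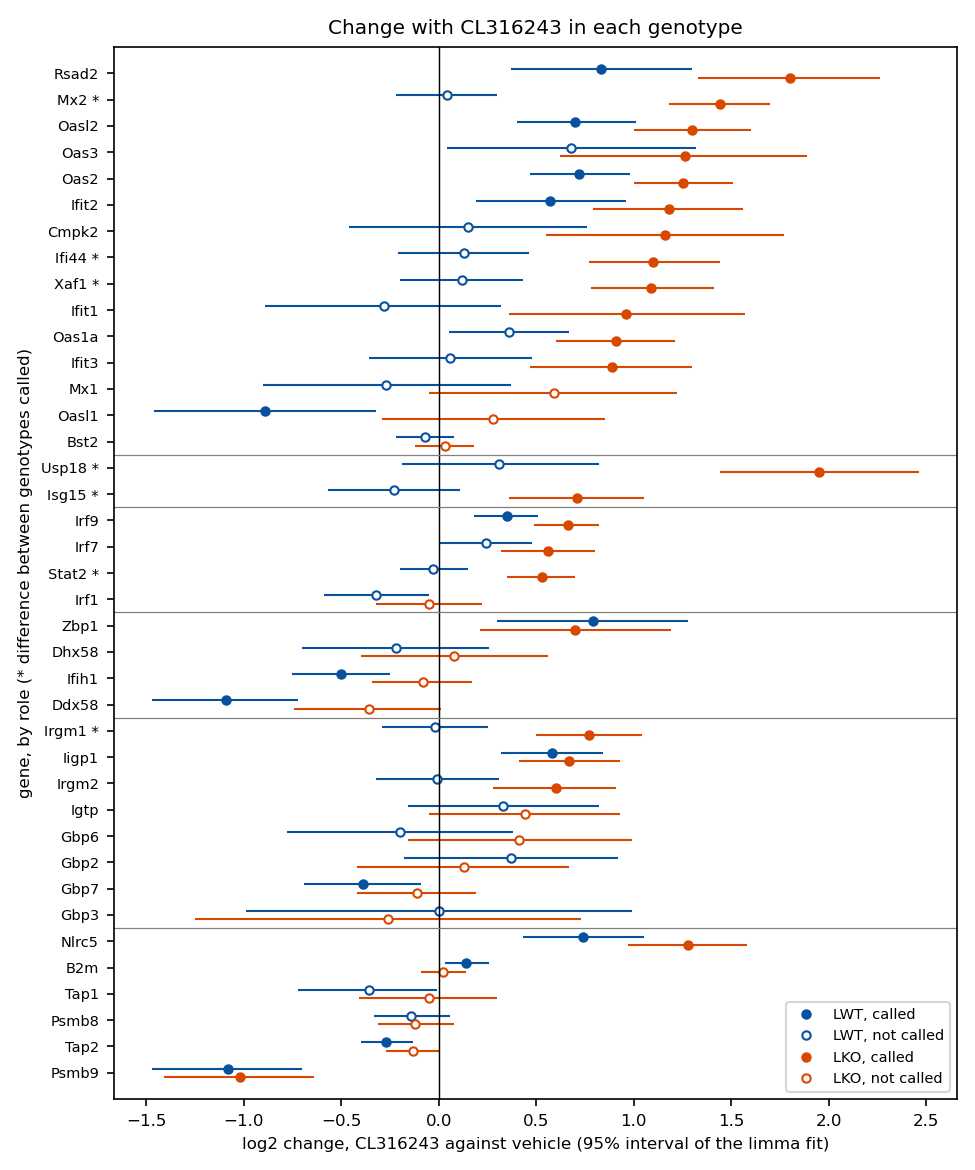
Log2 change with CL316243 in LWT (blue) and LKO mice (orange) for every member, with the 95% interval of the limma fit; filled points were called and an asterisk marks the 7 members whose change differed between genotypes. LKO points lie at 0.53 or above for the 22 called genes, and Psmb9 is negative in both genotypes, at -1.08 and -1.02.

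Among the factors that carry the interferon signal into the nucleus, 3 of 4 rose with CL316243 in LKO mice (75%, against 20.9% of all genes). Stat2, a subunit of the response-element complex, lay (lowest, median and highest of 6 mice) at 2.91, 3.05 and 3.32 in LWT vehicle, 2.89, 3.06 and 3.18 in LWT CL316243, 2.69, 2.96 and 3.12 in LKO vehicle and 3.19, 3.51 and 3.58 in LKO CL316243. All 6 LKO CL316243 mice were above every LKO vehicle and every LWT CL316243 mouse, while 1 of the LWT vehicle mice reached into their range. Stat2 rose by 0.53 (SE 0.09, adjusted p 5.25e-05) in LKO mice against -0.03 (adjusted p 0.837) in LWT mice, and this difference of 0.55 (SE 0.12, adjusted p 0.00736) was called. It rests on the brighter of 2 probes. The values of the other Stat2 probe differed by 1.22 in LWT and -0.09 in LKO mice, and with the mean of both all 3 Stat2 calls were lost. The LKO change was then 0.22 (adjusted p 0.565), the difference in change -0.38 (adjusted p 0.677) and LKO minus LWT under CL316243 -0.22 (adjusted p 0.668).

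Irf7, the factor that amplifies type I interferon production, lay at 4.49, 4.69 and 4.74 in LWT vehicle, 4.52, 4.90 and 5.26 in LWT CL316243, 4.47, 4.83 and 5.05 in LKO vehicle and 5.13, 5.32 and 5.77 in LKO CL316243. The LKO CL316243 mice were all above the LKO vehicle mice and partly overlapped the LWT CL316243 mice. Irf7 rose by 0.56 (SE 0.12, adjusted p 0.000556) in LKO mice, and its change of 0.24 (adjusted p 0.115) in LWT mice did not pass. Without LWT CL316243 replicate 2 the LWT change passed, at 0.31 (adjusted p 0.0378). The other kept Irf7 probe changed by 0.41 in LWT and 0.30 in LKO mice, a difference in change of -0.11. Irf9, the DNA-binding subunit of the STAT complex, rose in both genotypes, by 0.35 (adjusted p 0.00144) in LWT and 0.66 (adjusted p 1.87e-06) in LKO mice, and the difference passed only with the mean of its kept probes, at 0.38 (adjusted p 0.0416). Irf1, a factor induced by interferon gamma, had levels of 2.88, 3.07 and 3.45 in LWT vehicle, 2.44, 2.79 and 3.22 in LWT CL316243, 2.79, 2.97 and 3.26 in LKO vehicle and 2.57, 2.99 and 3.27 in LKO CL316243. All 4 groups overlapped, and the changes of -0.32 (adjusted p 0.0588) in LWT and -0.05 (adjusted p 0.8) in LKO mice did not pass. The LWT change passed, at -0.33 to -0.37, with normexp background correction, with quantile normalization and with the authors' table. The other kept Irf1 probe differed by -0.06 in LWT and -0.43 in LKO mice, a difference in change of -0.36 against 0.27 for the brighter probe.

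Isg15 and Usp18, the ubiquitin-like modifier that interferon places on proteins and the protease that removes it and restrains the interferon receptor, both rose in LKO mice, and for both the change differed between genotypes. Usp18 showed the largest change of all members, with levels of -0.06, 0.50 and 0.91 in LWT vehicle, 0.21, 0.86 and 1.13 in LWT CL316243, 0.29, 0.41 and 0.75 in LKO vehicle and 1.35, 2.46 and 3.43 in LKO CL316243. Every LKO CL316243 mouse was above every one of the other 18 mice. In LKO mice Usp18 rose 3.86-fold, a log2 change of 1.95 (SE 0.24, adjusted p 2.96e-06), against 0.31 (adjusted p 0.337) in LWT mice, and the difference was 1.64 (SE 0.35, adjusted p 0.00545).

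Isg15 lay at 2.82, 3.24 and 3.66 in LWT vehicle, 2.59, 3.04 and 3.32 in LWT CL316243, 2.89, 3.13 and 3.21 in LKO vehicle and 3.49, 3.72 and 4.53 in LKO CL316243. The LKO CL316243 mice cleared both the LKO vehicle and the LWT CL316243 mice but overlapped the upper LWT vehicle mice, and 1 of them, replicate 6, stood far above the rest at 4.53. Isg15 rose by 0.71 (SE 0.17, adjusted p 0.00171) in LKO mice, its change of -0.23 (adjusted p 0.29) in LWT mice did not pass, and the difference between genotypes was 0.94 (SE 0.23, adjusted p 0.0189).

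**Figure D4:**
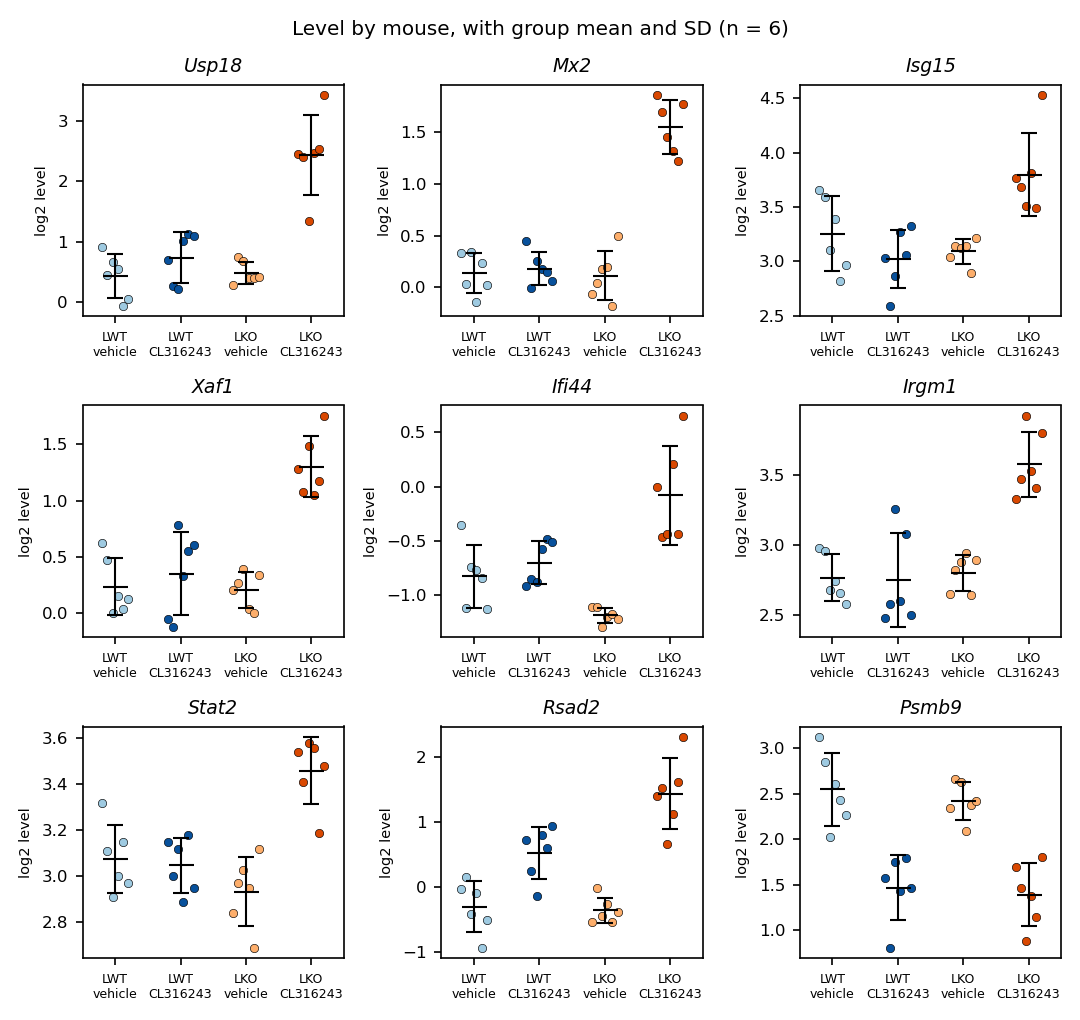
Log2 level of 9 members in each mouse, by group, with the group mean and SD (n = 6). The 6 LKO CL316243 mice stand above all other mice for Usp18, Mx2, Xaf1 and Irgm1, whereas Psmb9 is lower in both CL316243 groups.

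The antiviral effectors rose in LKO mice for 12 of 15 genes (80%) and fell for 0, against 20.9% and 19.4% of all genes. The median change was 1.1. In LWT mice 4 rose and 1 fell (26.7% and 6.67%, against 18.9% and 19.4%), with a median of 0.13. All 15 differences between genotypes were positive, with a median of 0.86. Called were 3 of them, in Mx2, Xaf1 and Ifi44 (20%, against 2.17% of all genes). Mx2, a gene of the dynamin-like GTPase family, was at -0.14, 0.13 and 0.34 in LWT vehicle and -0.01, 0.16 and 0.45 in LWT CL316243. In LKO mice it was at -0.18, 0.11 and 0.50 under vehicle and 1.22, 1.57 and 1.86 under CL316243. Its LKO CL316243 mice lay entirely above the other 3 groups, which overlapped one another. Mx2 rose 2.71-fold in LKO mice, by 1.44 (SE 0.12, adjusted p 3.56e-08), against 0.04 (adjusted p 0.824) in LWT mice, and the difference of 1.40 (SE 0.18, adjusted p 1.97e-05) had the smallest adjusted p of the 39. Its relative Mx1 was not called in either genotype, at -0.27 (adjusted p 0.53) in LWT and 0.59 (adjusted p 0.133) in LKO mice; the latter passed with normexp background correction, at 0.43 (adjusted p 0.0412).

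Xaf1, a pro-apoptotic protein induced by interferon, had levels of 0.00, 0.14 and 0.62 in LWT vehicle, -0.12, 0.44 and 0.78 in LWT CL316243, 0.00, 0.24 and 0.39 in LKO vehicle and 1.05, 1.22 and 1.75 in LKO CL316243. Again no LKO CL316243 mouse overlapped any other group. The rise in LKO mice was 1.09 (SE 0.15, adjusted p 1.05e-05), the LWT change 0.12 (adjusted p 0.594) and the difference 0.98 (SE 0.22, adjusted p 0.00775). Ifi44, an interferon-induced cytoplasmic protein, lay at -1.13, -0.80 and -0.35 in LWT vehicle, -0.91, -0.71 and -0.48 in LWT CL316243, -1.29, -1.18 and -1.11 in LKO vehicle and -0.46, -0.22 and 0.65 in LKO CL316243. Its LKO vehicle mice formed a narrow low group, below every LKO CL316243 mouse, and 1 LWT vehicle mouse reached into the range of the latter. Ifi44 rose by 1.1 (SE 0.16, adjusted p 1.74e-05) in LKO mice against 0.13 (adjusted p 0.583) in LWT mice; the difference was 0.98 (SE 0.23, adjusted p 0.012), and with the mean of its probes it was 1.03 (adjusted p 0.0677).

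Rsad2, which encodes viperin, an enzyme that makes a chain-terminating nucleotide, rose in both genotypes, and was at -0.94, -0.26 and 0.15 in LWT vehicle, -0.14, 0.65 and 0.93 in LWT CL316243, -0.54, -0.42 and -0.02 in LKO vehicle and 0.65, 1.46 and 2.30 in LKO CL316243. In LKO mice treatment and vehicle did not overlap, and in LWT mice they did. The rise was 0.83 (SE 0.22, adjusted p 0.00523) in LWT and 1.80 (SE 0.22, adjusted p 2.83e-06) in LKO mice, or 3.48-fold in the latter, and the difference of 0.96 (adjusted p 0.0839) did not pass. Cmpk2, the nucleotide kinase that lies next to Rsad2 on chromosome 12, had levels of -1.38, -0.57 and -0.26 in LWT vehicle, -1.26, -0.65 and 0.22 in LWT CL316243, -0.99, -0.67 and -0.53 in LKO vehicle and -0.84, 0.50 and 1.24 in LKO CL316243. Its LKO CL316243 mice spread so widely that the lowest fell among the vehicle mice. Cmpk2 changed by 1.16 (SE 0.29, adjusted p 0.00312) in LKO mice and by 0.15 (adjusted p 0.724) in LWT mice, and the difference of 1.01 (adjusted p 0.183) did not pass; between genotypes under CL316243 it was called at 0.95 (adjusted p 0.0287) and lost in 6 of 12 fits that left out 1 mouse.

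The oligoadenylate synthetases, which make the second messenger of RNase L, differed by member. Oas2 was at 0.25, 0.65 and 0.71 in LWT vehicle, 1.04, 1.29 and 1.56 in LWT CL316243, 0.16, 0.51 and 0.89 in LKO vehicle and 1.51, 1.75 and 2.17 in LKO CL316243. Treated mice lay above vehicle mice without overlap in both genotypes. The rise was 0.72 (SE 0.12, adjusted p 9.07e-05) in LWT and 1.25 (SE 0.12, adjusted p 2.21e-07) in LKO mice. Oasl2, a synthetase-like protein, followed the same course, with levels of -0.80, -0.56 and -0.35 in LWT vehicle, -0.09, 0.11 and 0.42 in LWT CL316243, -0.67, -0.55 and -0.32 in LKO vehicle and 0.41, 0.72 and 1.54 in LKO CL316243. Here too neither genotype showed overlap, and the changes were 0.70 (adjusted p 0.000575) and 1.30 (adjusted p 7.91e-07). Oas1a rose by 0.91 (adjusted p 5.73e-05) in LKO mice and missed the threshold in LWT mice at 0.36 (adjusted p 0.0615), which it passed (adjusted p 0.0448) when the fit held only the LWT groups. Oas3 rose by 1.26 (adjusted p 0.00245) in LKO mice, but its probe was well above background on 0, 3, 1 and 5 of 6 arrays in LWT vehicle, LWT CL316243, LKO vehicle and LKO CL316243, so that value rests on levels near background. It passed the filter on dim probes only through LKO CL316243, so its rise is not support.

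Oasl1, which restrains translation of the Irf7 message, fell in LWT mice, with levels of 2.41, 2.99 and 4.11 in LWT vehicle, 1.49, 2.19 and 2.62 in LWT CL316243, 2.68, 2.95 and 3.72 in LKO vehicle and 2.51, 3.25 and 3.96 in LKO CL316243. The LWT CL316243 mice sat lowest, all below the LKO vehicle mice, and at their upper end they overlapped the LWT vehicle and LKO CL316243 mice. Oasl1 fell by 0.89 (SE 0.27, adjusted p 0.0132) in LWT mice, its LKO change of 0.28 (adjusted p 0.442) did not pass, and in CL316243 mice the LKO level exceeded the LWT level by 1.18 (SE 0.27, adjusted p 0.00401); the difference in change, 1.17 (adjusted p 0.0862), did not pass.

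The IFIT proteins bind foreign RNA ends, and all 3 rose in LKO mice. Ifit1 was at -1.07, -0.44 and 0.27 in LWT vehicle, -1.39, -0.76 and 0.03 in LWT CL316243, -0.77, -0.51 and -0.19 in LKO vehicle and -0.61, 0.33 and 1.59 in LKO CL316243. The LKO CL316243 mice ranged from among the vehicle mice to well above them. Ifit1 rose by 0.96 (SE 0.29, adjusted p 0.0114), its LWT change was -0.28 (adjusted p 0.481), and the difference of 1.25 (adjusted p 0.0859) did not pass. Ifit3 rose by 0.89 (adjusted p 0.00132) in LKO mice, with 0.06 (adjusted p 0.851) in LWT mice. Ifit2 rose in both, by 0.57 (adjusted p 0.018) in LWT and 1.18 (adjusted p 3.73e-05) in LKO mice. Bst2, the membrane tether of budding virions, stayed between 5.13 and 5.57 in all 24 mice, with changes of -0.07 (adjusted p 0.486) and 0.03 (adjusted p 0.773).

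Of the sensors of nucleic acids, 1 of 4 rose in LWT mice and 2 fell (25% and 50%, against 18.9% and 19.4% of all genes). In LKO mice 1 rose (25%, against 20.9%), so the shares that rose were near those of all genes. Ddx58, which encodes the RNA sensor RIG-I, was at 1.73, 1.88 and 2.15 in LWT vehicle, 0.56, 0.64 and 1.32 in LWT CL316243, 1.76, 1.90 and 2.15 in LKO vehicle and 0.89, 1.51 and 2.27 in LKO CL316243. All 6 LWT CL316243 mice were below all 6 LWT vehicle mice, while the LKO CL316243 mice were spread across both ranges. Ddx58 fell by 1.09 (SE 0.18, adjusted p 6.03e-05) in LWT mice, its LKO change was -0.36 (adjusted p 0.116), and in CL316243 mice the LKO level exceeded the LWT level by 0.73 (SE 0.18, adjusted p 0.00662).

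Ifih1, the sensor MDA5, had levels of 1.39, 1.65 and 1.83 in LWT vehicle, 0.68, 1.19 and 1.38 in LWT CL316243, 1.49, 1.65 and 1.87 in LKO vehicle and 1.41, 1.5 and 2.11 in LKO CL316243. The LWT CL316243 mice lay below both the LWT vehicle and the LKO CL316243 mice without overlap. It fell by 0.50 (SE 0.12, adjusted p 0.00248) in LWT mice, had a difference of -0.08 (adjusted p 0.616) in LKO mice and differed by 0.46 (adjusted p 0.0113) between the CL316243 groups. For neither sensor did the difference in change pass, at 0.73 (adjusted p 0.109) and 0.42 (adjusted p 0.187); with the mean of the kept probes both passed, at 0.92 (adjusted p 0.0414) and 0.57 (adjusted p 0.0256). Dhx58, the third receptor of that family, was not called in any comparison.

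Zbp1, a sensor of Z-form nucleic acid that can start necroptosis, rose in both genotypes, with levels of -0.19, 0.27 and 0.65 in LWT vehicle, 0.33, 0.84 and 2.24 in LWT CL316243, -0.08, 0.08 and 0.49 in LKO vehicle and 0.48, 0.78 and 1.34 in LKO CL316243. Treated and vehicle mice overlapped in both, and 2 LWT CL316243 mice were above all other mice. The changes were 0.79 (SE 0.24, adjusted p 0.0107) in LWT and 0.70 (SE 0.24, adjusted p 0.0216) in LKO mice, and the difference between them, -0.09, had a 95% interval of -0.79 to 0.60. Without LKO CL316243 replicate 6 the LKO change was 0.60 (adjusted p 0.0544).

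Of the 8 interferon-inducible GTPases, which attack membranes around intracellular pathogens, 3 rose in LKO mice (37.5%, against 20.9% of all genes). In LWT mice 1 rose and 1 fell (12.5% each, against 18.9% and 19.4%). The 3 that rose in LKO mice were the immunity-related GTPases Irgm1, Irgm2 and Iigp1. Of the guanylate-binding proteins 0 of 4 rose in either genotype, and 4 genes are too few to set against those shares. Irgm1, a regulator of the family, was at 2.58, 2.71 and 2.98 in LWT vehicle, 2.48, 2.59 and 3.26 in LWT CL316243, 2.64, 2.85 and 2.94 in LKO vehicle and 3.33, 3.5 and 3.92 in LKO CL316243. The LKO CL316243 mice were all above the other 18 mice, although 2 LWT CL316243 mice came close. Irgm1 rose by 0.77 (SE 0.13, adjusted p 7.09e-05) in LKO mice against -0.02 (adjusted p 0.935) in LWT mice, and the difference was 0.79 (SE 0.18, adjusted p 0.0112).

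Irgm2 rose by 0.60 (adjusted p 0.00318) in LKO mice, with -0.01 (adjusted p 0.981) in LWT mice. Iigp1 rose in both genotypes, by 0.58 (adjusted p 0.000793) and 0.67 (adjusted p 0.000206); the values of its other probe were -0.18 in LWT and 0.54 in LKO mice, and with the mean of both the LWT call was lost (0.20, adjusted p 0.378). Gbp7 was the 1 GTPase that fell in LWT mice, at -1.67, -1.52 and -1.28 in LWT vehicle, -2.27, -2.06 and -1.32 in LWT CL316243, -1.57, -1.31 and -1.09 in LKO vehicle and -1.77, -1.39 and -1.33 in LKO CL316243. The groups overlapped throughout, with 4 of the 6 LWT CL316243 mice below all vehicle mice. Its LWT change of -0.39 (SE 0.15, adjusted p 0.0378) was lost in 4 of the alternative analyses and in 8 of 12 fits that left out 1 mouse, and its excess in LKO over LWT under CL316243, 0.45 (adjusted p 0.0385), was lost in 9 of 12. Gbp2, Gbp3, Gbp6 and Igtp were called in none of the 5 comparisons, with LKO changes of 0.13 (adjusted p 0.731), -0.26 (adjusted p 0.693), 0.41 (adjusted p 0.248) and 0.44 (adjusted p 0.143). The Gbp3 value depends on a very low level on slide 1. In LKO CL316243 mice Gbp3 had a lowest level of -3.29 and a median of 0.51, against a median of 0.24 in LKO vehicle. Within slides 1, 2 and 3 its LKO change was -1.75, 0.51 and 0.46. Igtp passed (adjusted p 0.0492) when the fit held only the LKO groups.

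Of the 6 antigen processing genes, 1 rose and 1 fell in LKO mice (16.7% each, against 20.9% and 19.4% of all genes). In LWT mice 2 rose and 2 fell (33.3% each, against 18.9% and 19.4%). The difference in change, with a median of 0.09, was called for 0 of these genes. Nlrc5, the transactivator of class I genes, was the 1 gene of these that rose in both genotypes, with levels of 0.74, 1.0 and 1.56 in LWT vehicle, 1.36, 1.86 and 2.11 in LWT CL316243, 0.38, 0.52 and 1.03 in LKO vehicle and 1.53, 1.96 and 2.09 in LKO CL316243. LKO treated and vehicle mice did not overlap, and LWT mice overlapped slightly. The changes were 0.74 (SE 0.15, adjusted p 0.000404) in LWT and 1.28 (SE 0.15, adjusted p 1.17e-06) in LKO mice, and the difference of 0.54 (adjusted p 0.158) was not called. With the mean of its kept probes that difference was called, at 0.56 (adjusted p 0.0225), as was the lower level in LKO than in LWT vehicle mice, at -0.49 (adjusted p 0.013).

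Psmb9, an inducible catalytic subunit of the immunoproteasome, was the 1 member that fell in both, at 2.02, 2.52 and 3.12 in LWT vehicle, 0.81, 1.51 and 1.79 in LWT CL316243, 2.09, 2.39 and 2.66 in LKO vehicle and 0.88, 1.42 and 1.80 in LKO CL316243. Every treated mouse was below every vehicle mouse of its genotype. Psmb9 was 2.12-fold lower in LWT mice, a log2 change of -1.08 (SE 0.19, adjusted p 8.75e-05), and 2.03-fold lower in LKO mice, -1.02 (SE 0.19, adjusted p 0.000158), and the difference between genotypes was 0.06 with a 95% interval of -0.49 to 0.60. Its partner subunit Psmb8 was at 2.24, 2.44 and 2.75 in LWT vehicle, 2.13, 2.21 and 2.58 in LWT CL316243, 2.19, 2.35 and 2.54 in LKO vehicle and 2.13, 2.19 and 2.47 in LKO CL316243. All 4 groups overlapped, and the changes of -0.14 (adjusted p 0.271) and -0.12 (adjusted p 0.337) did not pass.

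Tap1 and Tap2 form the transporter that carries peptides into the endoplasmic reticulum. Tap1 was at 0.84, 1.04 and 1.73 in LWT vehicle, 0.33, 0.93 and 1.36 in LWT CL316243, 0.92, 0.99 and 1.27 in LKO vehicle and 0.70, 0.93 and 1.42 in LKO CL316243. No group stood apart, and neither -0.36 (adjusted p 0.0998) in LWT nor -0.05 (adjusted p 0.833) in LKO mice passed. The other kept Tap1 probe differed by -0.27 in LWT and -0.39 in LKO mice, a difference in change of -0.11 against 0.31 for the brighter probe. Tap2 fell by 0.27 (adjusted p 0.00216) in LWT mice, where treated and vehicle mice did not overlap; the LKO change of -0.13 (adjusted p 0.0983) passed, at -0.18 to -0.20, with median scaling, with quantile normalization and with the authors' table. B2m, the light chain of class I molecules, was at 7.59, 7.78 and 7.83 in LWT vehicle, 7.76, 7.88 and 8.01 in LWT CL316243, 7.74, 7.79 and 7.92 in LKO vehicle and 7.76, 7.82 and 7.92 in LKO CL316243. Its groups overlapped, and the LWT change of 0.14 (SE 0.06, adjusted p 0.0458) was called by a narrow margin: it was lost in 8 of 12 fits that left out 1 mouse, and with the mean of both B2m probes it was -0.15 (adjusted p 0.0968). Its LKO change was 0.02 (adjusted p 0.79).

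Mouse by mouse, the set was highest in LKO CL316243 mice. The median over the 39 members of the level minus the LWT vehicle mean was -0.18 to 0.28 in LWT vehicle, -0.23 to 0.31 in LWT CL316243, -0.17 to 0.07 in LKO vehicle and 0.26 to 0.86 in LKO CL316243. The lowest LKO CL316243 mouse, replicate 3, therefore overlapped the uppermost LWT mice, and replicate 6 stood highest, with the highest level of its group for 27 of the 39 members. In the reference group, LWT vehicle, replicate 1 on slide 2 had the highest level for 28 of the 39.

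Neutrophil markers also changed with treatment. Of 5 markers (S100a8, S100a9, Ly6g, Mpo and Retnlg), 3 rose and 1 fell in LWT mice, 3 rose and 0 fell in LKO mice, and 0 differed in change between genotypes. Their summed level, in multiples of the 75th percentile, was 1.89 to 5.13 in LWT vehicle, 1.99 to 13.5 in LWT CL316243, 2.02 to 3.18 in LKO vehicle and 3.44 to 47.1 in LKO CL316243. Within the last group, replicate 3 had the highest neutrophil sum and the lowest interferon median (0.26), and replicate 6, with the highest interferon median (0.86), had a neutrophil sum of 4.87. Kupffer cell and macrophage markers, 0 of 8 called, summed to 53.7 to 111 in LWT vehicle and 54.6 to 101 in LKO CL316243, T and NK cell markers (1 of 5 higher and 2 lower in LKO, 0 called in LWT) to 24.4 to 31.6 and 18.4 to 27.5, and hepatocyte markers to 1830 to 2140 and 1840 to 2480. B cell markers fell for 3 of 3 in LWT and 2 of 3 in LKO mice, and their sums were 0.784 to 1.34 in LWT vehicle, 0.317 to 0.899 in LWT CL316243, 0.492 to 0.915 in LKO vehicle and 0.195 to 0.98 in LKO CL316243. Among 5 endothelial markers, 2 rose and 1 fell in LWT mice, and 1 rose and 1 fell in LKO mice. Lyve1 rose 2.27-fold in LWT and 5.23-fold in LKO mice, while Kdr fell in both. Pecam1 rose by 0.49 (adjusted p 0.00613) in LWT mice only, and Stab2 and Clec4g were not called. The endothelial sums were 37 to 40.4 in LWT vehicle and 33.6 to 45.9 in LKO CL316243. Of 4 dendritic cell markers tested, 2 rose and 0 fell in LWT mice, and 1 rose and 0 fell in LKO mice. Siglech, at a mean level of 7.74, rose by 0.20 in LWT and 0.24 in LKO mice. Ccr9 rose by 2.11 in LWT mice, against 0.18 (adjusted p 0.301) in LKO mice. Its difference in change was -1.93 (adjusted p 9e-07). Flt3 (-0.57 in LWT and 0.43 in LKO mice) and Itgax (-0.23 and 0.67) were not called. These marker counts stand beside shares over all genes of 18.9% higher and 19.4% lower in LWT and 20.9% and 19.4% in LKO mice. In whole liver, more cells of a type and more RNA per cell cannot be told apart, and the part of immune cells in these changes was not tested.

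**Figure D5:**
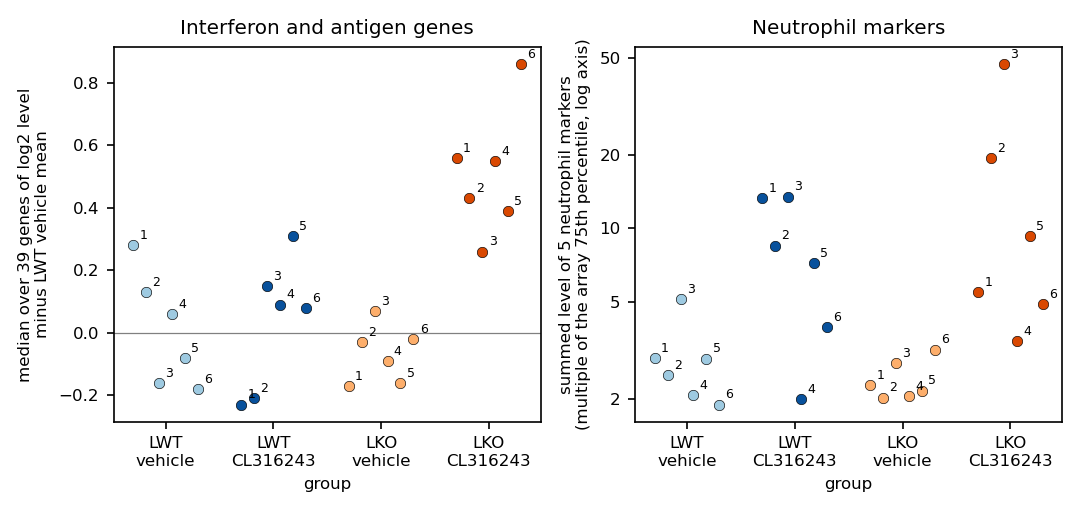
Left, the median over the 39 genes of the log2 level minus the LWT vehicle mean, for each mouse; right, the summed level of 5 neutrophil markers on a log axis. Numbers are replicate numbers. In LKO CL316243, replicate 3 is lowest on the left at 0.26 and highest on the right at 47.1.

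The rest of the interferon pathway was read from a list of 81 further genes, of which 73 could be tested. In LWT mice 15 rose and 14 fell, in LKO mice 28 rose and 8 fell, and the change was larger in LKO for 3 and smaller for 0. These counts are 20.5% and 19.2% of the 73 in LWT, near the 18.9% and 19.4% of all genes, 38.4% and 11% in LKO against 20.9% and 19.4%, and 4.11% for the larger change against 2.17%. Medians were 0.03, 0.12 and 0.13. The interferons themselves were near or below background: the Ifnb1 probe was well above background on 1, Ifna4 on 0 and Ifng on 2 of 24 arrays. Ifngr1, a chain of the interferon gamma receptor, rose by 0.18 (adjusted p 0.0222) in LWT and 0.33 (adjusted p 0.000248) in LKO mice. Ifngr2, the other chain, was not called in LWT (0.19, adjusted p 0.241) or LKO mice (-0.15, adjusted p 0.342). Its LKO minus LWT difference under CL316243 was called, at -0.62 (adjusted p 0.000885). Ifnar1, a chain of the type I receptor, fell by 0.21 (adjusted p 0.00444) in LWT mice, with -0.10 (adjusted p 0.167) in LKO mice.

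Socs3, a brake on cytokine receptors, rose by 2.99 (SE 0.66, adjusted p 0.00107) in LWT and 3.01 (SE 0.66, adjusted p 0.00101) in LKO mice, and Myd88, the adaptor of Toll-like receptors, by 2.0 (adjusted p 1.4e-07) and 1.34 (adjusted p 2.83e-05). Among called genes, the third largest rise was that of Tbk1, a kinase that activates interferon regulatory factors, at 0.73 (adjusted p 0.000184) in LWT mice, and of Isg20, an exonuclease, at 0.81 (adjusted p 0.000127) in LKO mice. Falls were led by Irf5, a macrophage interferon regulatory factor, at -1.29 (adjusted p 0.000505) and -0.94 (adjusted p 0.00692), followed by Ciita, the class II transactivator, at -0.88 (adjusted p 0.000339) and -0.78 (adjusted p 0.00103), and by Ikbke, a kinase related to TBK1, at -0.81 (adjusted p 0.000147) and -0.62 (adjusted p 0.00193).

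Of 29 further interferon-stimulated effectors, 15 rose and 1 fell in LKO mice (51.7% and 3.45%, against 20.9% and 19.4% of all genes). In LWT mice 6 rose and 4 fell (20.7% and 13.8%, against 18.9% and 19.4%). Eif2ak2, the RNA-activated kinase PKR, rose by 0.73 (SE 0.10, adjusted p 1.11e-05) in LKO mice with -0.04 (adjusted p 0.772) in LWT mice, and the difference of 0.78 (adjusted p 0.00182) was called. Rnf213, a ubiquitin ligase, differed by 0.76 (adjusted p 0.0222) and Calr, the chaperone calreticulin, by 0.55 (adjusted p 0.00263). In the further antigen presentation genes 2 of 17 rose and 2 fell in LKO mice (11.8% each, against 20.9% and 19.4% of all genes). Psmb10, the third inducible proteasome subunit, fell in both genotypes, at -0.48 (adjusted p 0.000299) and -0.31 (adjusted p 0.0096). Ifngr1, Ifngr2, Ifnar1 and Psmb10 were chosen after their values were seen. Levels of members with close relatives on the array, such as Ifit3 with Ifit3b, Oas1a with other Oas1 genes and the guanylate-binding proteins, may share signal, which was not tested.

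Where the array's probes sit is given for the 7 members whose change differed between genotypes, on the mouse build mm9. The Usp18 probe covers chromosome 6, 121220874 to 121220933, that of Mx2 chromosome 16, 97782327 to 97782386, and that of Stat2 chromosome 10, 127729834 to 127729893, all on the plus strand. Xaf1 is read at chromosome 11, 72122169 to 72122228 (plus strand), and Irgm1 at chromosome 11, 48679069 to 48679128 (minus strand). Ifi44 is read at chromosome 3, 151394035 to 151394094, and Isg15 at chromosome 4, 155573649 to 155573708, both on the minus strand. Exon annotation of that build was not used here.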

How the data were processed

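Liver RNA of 24 mice was labelled with Cy3 and hybridised to 1-colour Agilent arrays, 8 to a slide. The processed signal intensity deposited by the authors was made by Agilent Feature Extraction 10.10.1.1, per the submitters' processing notes. The log2 values deposited by the authors in the series table have a source that the labels do not state; they matched quantile-normalized log2 median signals (99.99% of values within 0.1) and served as an alternative. From the intensities, log2 was taken and the 75th percentile of each array (397.4 to 577.7) subtracted. Outlier spots were left out and spots averaged per probe. Kept were the 32037 probes that stood well above background in 4 or more of the 6 mice of any group, and the brightest kept probe stood for a gene (21331 genes). Members had 19 further kept probes. Of these, 14 had the sign of the brightest probe for the LKO change and 13 for the difference in change.

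Groups came from the labels. R 4.3.3 and limma 3.58.1 fitted 1 mean per group over all 24 arrays, with Benjamini-Hochberg adjustment within each comparison; the fit was tested on simulated data. Replicate numbers were not taken as pairs. Genes given in full were 8 set ones, the 5 largest called changes per direction and comparison, and all called differences between genotypes. Members and lists were chosen with earlier results of these data known. P-values measure only the spread between these samples. Alternatives covered background, scaling, the authors' table, dim-probe filters, probe choice, slide, array row, replicate block, samples in the fit and each mouse left out. Promoters of 10 members had no matched window and are not analysed here.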

Additional observations from a re-analysis of the deposited data

Results flagged for a closer look

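In 7 of 96 groups of 6 mice examined, 1 mouse stood apart by Dixon's criterion, which chance gives in about 1 of 20 groups. Replicate 6 of LKO CL316243 was highest for Ifih1 (2.11), Irf7 (5.77), Isg15 (4.53) and Oasl2 (1.54). Replicate 5 of that group was lowest for Gbp7 (-1.77). Replicate 6 of LWT vehicle was lowest for Oas2 (0.25), and replicate 2 of LWT CL316243 was lowest for Psmb9 (0.81).

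The change with CL316243 differed between genotypes, by limma's interaction term, for 7 members, all with the larger value in LKO mice. The differences were 1.64 for Usp18, 1.4 for Mx2, 0.98 for Xaf1, 0.98 for Ifi44, 0.94 for Isg15, 0.79 for Irgm1 and 0.55 for Stat2. These 7 were called in each of the 24 fits that left out 1 mouse.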

How the results depend on the processing

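Over 24 members named in full (50 results by comparison), 508 results under alternatives kept their direction and side of the threshold, 17 lost the call, 3 gained it and 9 changed sign; with 1 mouse left out these were 716, 22, 5 and 13. Members lower in LKO numbered 2 with median scaling, quantile normalization and the authors' table, and 1 to 2 with a mouse left out (2 without LKO CL316243 replicate 6, where Ddx58 joined). Members with a larger change in LKO numbered 7 to 13, and 13 without LKO CL316243 replicate 3. Fitting only the groups compared left 13 members higher in LKO than in LWT under CL316243. With the mean of the kept probes 1 member (Nlrc5) was lower in LKO vehicle, Stat2 was 0.59 in LWT and -0.38 in the difference, Irf1 -0.05 in the difference, and B2m -0.15 in LWT and -0.16 in LKO. B2m in LKO was -0.05 with median scaling and -0.06 with both quantile normalization and the authors' table; Psmb8 was -0.03 in the difference with median scaling. Leaving out 1 mouse, Irf1 in LKO ran from -0.11 to 0.03, Stat2 in LWT from -0.06 to 0.02, Tap1 in LKO from -0.14 to 0.01 and Psmb8 in the difference from -0.04 to 0.07. The cause was not tested. The replicate numbers did not pair the samples (36 pairs, correlations -0.18 to 0.42, 9 above 0.1; 10 of 24 samples correlated best with their own number). With the replicate block members higher and lower numbered 8 and 5 in LWT, 22 and 1 in LKO, and 7 and 0 in the difference; B2m and Gbp7 lost the call in LWT (adjusted p 0.0696 and 0.0572). Signal near background limits Oas3.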

Other observations

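Replicates 3 and 5 of LWT CL316243 stood above the other 4 mice of their group for 4 genes classically induced by interferons, which were chosen after their values were seen. Igtp was at 4.90 and 4.75 in these mice and at 3.24 to 3.98 in the other 4. Gbp2 was at 0.46 and 0.72 against -1.16 to -0.72, and Zbp1 at 2.24 and 1.52 against 0.33 to 0.85. Cxcl9, a chemokine that is not among the 39 genes, was at 2.26 and 2.01 against -0.28 to 0.35. Cxcl10, another interferon-induced chemokine, did not follow this order, with -0.74 and 0.22 in these mice and -1.51 to 0.31 in the other 4. Socs1, an inhibitor of JAK kinases, was at 2.02 in replicate 3 of LWT CL316243 and at 3.67 in replicate 3 of LKO CL316243, against -2.96 to -0.48 and -2.31 to -0.21 in the other mice of these groups. No test was run on these values.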
